A study of Homo sapiens with 22 samples.

Results

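The AP-1 and immediate early genes are followed here in Caco-2, an established line from a human colon carcinoma that stands in for gut epithelium in culture. They were chosen by name, with earlier results of these data known. They are FOS, FOSB, FOSL1, FOSL2, JUN, JUNB, JUND, EGR1, IER2 and IER3, 10 of the 61487 genes counted by RNA sequencing. All 10 were among the 20373 genes tested. The cells, labelled wildtype and undifferentiated, were grown with serum and an antibiotic-antimycotic in every group and then exposed for 48 h with 10% of the medium made up by the treatment. The treatment was PBS as the vehicle (n = 4), faecal water of control mice (FWctl, n = 7), faecal water taken from these mice while on antibiotics (FWatb, n = 7), or ATB, the cocktail itself (n = 4). Faecal water is the supernatant of faeces homogenised in PBS, and the cocktail held 1 g/L neomycin, 0.5 g/L vancomycin and 0.25 g/L meropenem. The comparisons ask how faecal water acts on these cells, whether its action differs once the mice are under antibiotics, and what the antibiotics do by themselves. All libraries come from 1 cell line, and the labels do not say whether libraries of a group are separate cultures. In its qPCR of these conditions the paper counts 7 biological replicates of faecal water. The spread within FWctl and FWatb may therefore include differences between mice, which PBS and ATB do not have. The p-values measure the spread between these samples, which in PBS and ATB may be technical.

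AP-1 is a family of transcription factors made of pairs of basic leucine zipper proteins. FOS, FOSB, FOSL1 and FOSL2 cannot pair with themselves and need a JUN, JUNB or JUND partner, whereas the Jun proteins can also pair with each other. Most of these genes are immediate early genes, switched on by growth factors, stress or cytokines through MAP kinases without new protein synthesis, and their mRNAs are short-lived. EGR1 is a zinc finger factor of the same early wave, IER2 is a small nuclear early protein, and IER3 is an early response protein linked to cell survival. In the intestinal epithelium AP-1 acts in proliferation, wound repair and inflammatory signalling.

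FOS and EGR1 were lowest under FWctl and highest under ATB. JUN was raised under both FWctl and ATB, with the higher mean under FWctl but overlapping libraries. FOSL2 and JUNB were lower under FWctl than in every other group, and no comparison among those groups passed the test. JUND, with means between 272 and 284 normalized counts, did not pass the test in any of the 6 pairwise comparisons.

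**Figure D1:**
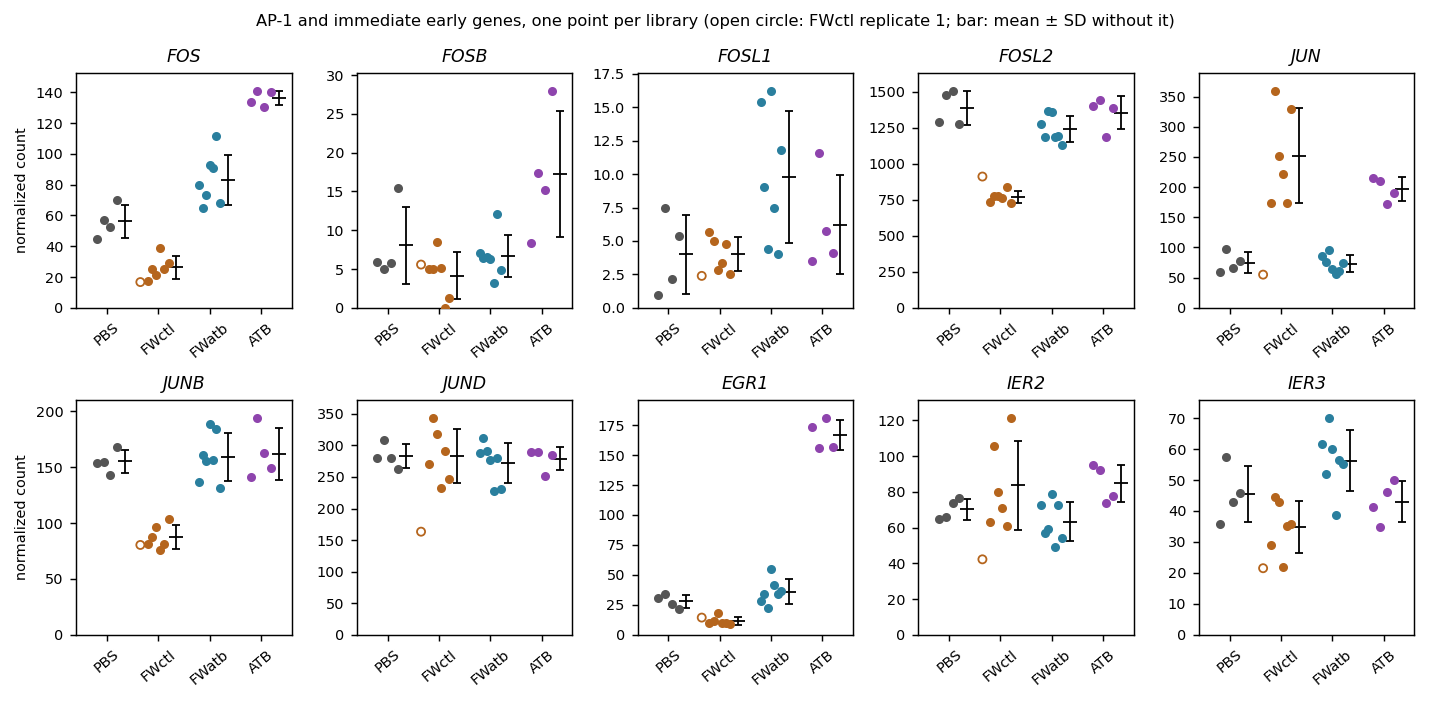
Normalized counts of the 10 genes (y axes from 0, each panel with its own scale) in PBS, FWctl, FWatb and ATB, with 1 filled point per library, bars at the mean ± SD and FWctl replicate 1 as an open circle. EGR1 stands at 156 to 181 in the 4 ATB libraries and at or below 55.0 in all others, and JUN is high in 6 FWctl and 4 ATB libraries.

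The promoters of EGR1, JUN and JUND are shown because they hold the known response elements that were looked for among the members. For 8 of the 10 members the 250 bases before the RefSeq start of the gene were read from RefSeq promoters (GRCh38.p14), and FOSL1 and IER3 had no entry. Both strands were searched for the AP-1 site TGANTCA, the cAMP response element TGACGTCA, its variant TGACATCA, the CArG box bound by serum response factor, the EGR site GCGNGGGCG and the NF-kB site, and matched bases are in capitals, 5′ to 3′ on the strand of the gene.
EGR1, chr5:138465229-138465478, plus strand: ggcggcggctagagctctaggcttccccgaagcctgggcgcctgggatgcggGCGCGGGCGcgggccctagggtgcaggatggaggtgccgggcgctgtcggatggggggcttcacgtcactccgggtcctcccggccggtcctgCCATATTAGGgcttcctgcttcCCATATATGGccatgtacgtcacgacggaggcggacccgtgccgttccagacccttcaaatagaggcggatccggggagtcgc
JUN, chr1:58784048-58784297, minus strand: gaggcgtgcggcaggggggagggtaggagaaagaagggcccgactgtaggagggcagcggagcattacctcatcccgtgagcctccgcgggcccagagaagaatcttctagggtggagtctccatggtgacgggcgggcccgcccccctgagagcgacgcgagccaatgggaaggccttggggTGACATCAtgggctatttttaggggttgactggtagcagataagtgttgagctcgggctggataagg
JUND, chr19:18281623-18281872, minus strand: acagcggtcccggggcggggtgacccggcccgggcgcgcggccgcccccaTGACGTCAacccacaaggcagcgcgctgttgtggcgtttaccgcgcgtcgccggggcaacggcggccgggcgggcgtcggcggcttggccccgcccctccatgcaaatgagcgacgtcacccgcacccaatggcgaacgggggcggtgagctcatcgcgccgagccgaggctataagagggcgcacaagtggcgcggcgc
The EGR1 window held 2 CArG boxes, the nearer of which begins 83 bases before the start, and 1 EGR site 198 bases before it. A CArG box is found in 1.16% and the EGR site in 8.41% of the 35116 promoters of this length. The JUN window held the variant element 67 bases before its start (2.37% of promoters), and the JUND window held the cAMP response element 200 bases before its start (1.65%). None of the searched motifs, the AP-1 site (6.57% of promoters) and the NF-kB site (6.88%) included, matched in the windows of FOS, FOSB, FOSL2, JUNB and IER2. The FOSL2 window (chr2:28392608-28392857) lies inside the gene as GENCODE places it, so it says nothing of the sequence before that start. A match is a description of the letters, and no match says only that these letters are not in this window.

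Library totals ranged from 7118302 to 18726967 counts, with 26.0% to 35.5% of counts on mitochondrial transcripts. FWctl replicate 1 lay at 8.74 on the first principal component, the other 6 FWctl libraries at 34.5 to 38.9 and all libraries of other groups at or below -12.6. The study left out 1 FWctl library as an outlier, and this library is shown apart, so that FWctl has n = 6 unless stated. Transcripts of ribosomal DNA took 0.0163% to 0.0805% of counts in 8 libraries (2 PBS, 3 FWctl and 3 ATB) and 1.87% to 8.19% in the other 14, which include all 7 FWatb libraries. The labels name no batch, and results are given with this library set as a term where it changes a call. The epithelial markers EPCAM (6328 to 8405 normalized counts) and CDH1 (5044 to 7195) were high throughout. By contrast, CDX1 did not exceed 2.89, and KRT20 ran from 0 to 48.4. Of 10 epithelial markers tested, 3 rose (VIL1, KRT8, ALPI) and 3 fell (KRT18, KRT20, SI) under FWctl, and SI, a brush border enzyme, alone rose under ATB (0.76, adjusted p = 0.0219), a call that DESeq2 did not make (0 of the list). Under FWatb SI fell (-0.96) and KRT8 (0.48) and KRT18 (0.61) rose. Of 9 markers of other cell types, the summed level was 166 to 172 in PBS, 43.5 to 76.3 in FWctl, 157 to 197 in FWatb and 174 to 260 in ATB, most of it COL1A1 and PECAM1, which fell under FWctl. All libraries are of 1 epithelial line, so these markers are read as Caco-2 transcripts, not as a share of other cells. In bulk RNA, fewer expressing cells and less RNA per cell cannot be told apart. The part of these markers in the results was not tested.

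Per kb of exon, FOSL2 had the highest level of the 10 genes in PBS (194 ± 16.7 normalized counts per kb, SD, n = 4). JUND followed with 147 ± 9.82 and JUNB with 84.8 ± 5.63 per kb. IER3 (33.7), IER2 (22.8), JUN (20.7) and FOS (17.6) formed a middle group per kb, and EGR1 stood at 8.88. FOSL1 (2.12) and FOSB (1.45) were near the limit of what these libraries count, with raw counts of 1 to 13 and 0 to 41 over the 21 libraries. By mRNA per kb of annotated exon, the prototypes FOS and JUN were therefore minor members of the family in PBS.

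Of the summed level per kb of the 7 FOS and JUN family genes, JUN made up 4.41% ± 0.784 in PBS (SD, n = 4), 17.9% ± 4.29 in FWctl (n = 6), 4.45% ± 0.819 in FWatb (n = 7) and 10.3% ± 0.652 in ATB (n = 4). The share of FOSL2 went the other way under FWctl, with 41.5% ± 2.29, 28.3% ± 2.90, 38.3% ± 1.83 and 35.96% ± 1.13 in the same order. FOS took 3.77% in PBS, 2.19% in FWctl, 5.75% in FWatb and 8.16% in ATB. JUND took 31.4%, 38.3%, 31.0% and 27.5%. These shares describe mRNA and carry no test. A share also moves when other members change. JUND counts passed no comparison, and FOSL2 counts did not pass between ATB and PBS (-0.04, adjusted p = 0.964, edgeR).

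**Figure D2:**
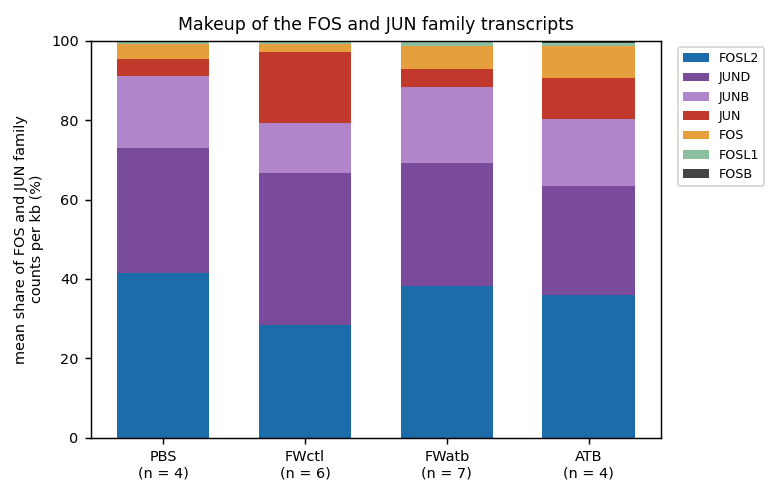
Stacked bars give the mean share (%) of each gene in the summed normalized counts per kb of the 7 FOS and JUN family genes in PBS, FWctl, FWatb and ATB. The JUN segment is 17.9% in FWctl against 4.41% in PBS, and the FOS segment is 8.16% in ATB against 3.77% in PBS.

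Against PBS, 5 of the 10 genes passed the test under FWctl (edgeR quasi-likelihood test, adjusted p below 0.05), JUN upwards and FOS, FOSL2, JUNB and EGR1 downwards. Over all genes tested 46.4% passed in that comparison, so the count itself is near the background. Of all genes 24.3% were higher and 22.1% lower. Under FWatb only FOS passed, upwards, against 9.99% of all genes (6.04% higher, 3.95% lower, or 1231 and 804 genes, against 2090 and 411 when scaled by library size alone). Under ATB 3 of 10 passed, FOS, JUN and EGR1, all upwards, whereas 0.285% of all genes did (58 genes, 0.255% higher and 0.0295% lower). In that comparison EGR1 ranked 1, FOS 3 and JUN 5 by p among the 20373 genes. As the members were chosen with earlier results of these data known, these shares and ranks describe them and are no independent support.

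Between both kinds of faecal water, 4 of 10 genes passed with the fold change threshold (absolute log2 fold change above 1), against 12.7% of all genes (6.12% higher, 6.6% lower). FOS, FOSL1 and EGR1 were higher under FWatb than under FWctl and JUN was lower. Without that threshold 8 of 10 passed, against 48.8% of all genes (23.4% higher, 25.4% lower), adding FOSL2, JUNB and IER3 upwards and IER2 downwards. Against ATB, 4 genes were lower under FWatb (FOS, FOSB, JUN and EGR1, with 14.5% of all genes passing, 7.66% higher and 6.86% lower, or 1560 and 1398 genes against 2662 and 724 when scaled by library size alone). Against ATB, 6 passed under FWctl (45.6% of all genes, 23.6% higher and 21.9% lower), with FOS, FOSB, FOSL2, JUNB and EGR1 lower and JUN higher. The comparisons share the PBS, FWctl, FWatb and ATB libraries, so their counts are not independent of each other.

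Counted by groups whose libraries did not overlap, 5 of the 10 genes were separate in FWctl vs PBS (33.7% of all genes), 0 in FWatb vs PBS (6.86%) and 3 in ATB vs PBS (5.58%). In FWatb vs FWctl 5 were separate (25.5% of all genes), in FWatb vs ATB 3 (8.61%) and in FWctl vs ATB 4 (32.1%). The 3 genes separate in ATB vs PBS were the called genes FOS, JUN and EGR1.

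**Figure D3:**
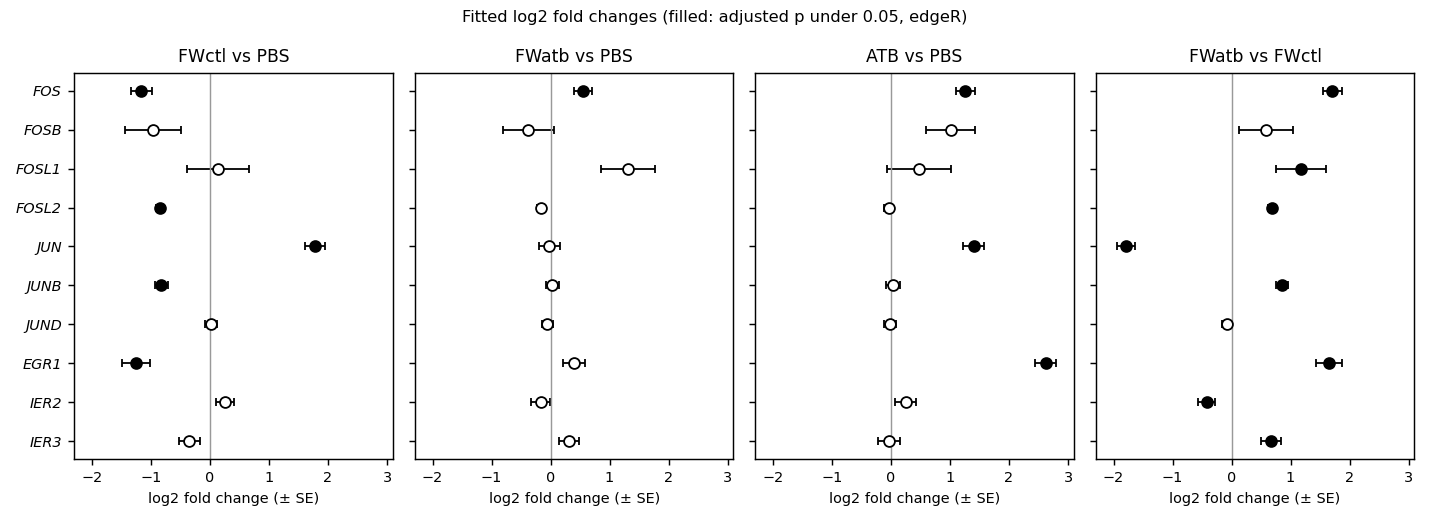
Fitted log2 fold changes (x axis, ± SE) of the 10 genes in FWctl, FWatb and ATB against PBS and in FWatb against FWctl, with filled points for an adjusted p below 0.05. JUN lies at 1.77 and FOS at -1.16 in FWctl vs PBS, while both lie above 1 in ATB vs PBS.

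FOS (ENSG00000170345, chr14:75278826-75282230 in GRCh38, plus strand, counted over its exons as all genes here) encodes the prototype Fos protein. Its normalized counts in PBS were 44.7, 57.4, 52.4 and 69.9, and in ATB 134, 141, 131 and 140.0. Under FWctl they had a lowest value of 17.7, a median of 25.3 and a highest of 38.9, and under FWatb 64.8, 79.5 and 112. The ATB libraries stood above all others, the FWctl libraries stood below all PBS libraries, and FWatb overlapped PBS. The CV of 3.52% in ATB, on raw counts of 73 to 205, is below counting noise and is no measure of a steady level.

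The mean of FOS was 56.1 ± 10.5 in PBS (SD, n = 4), 26.3 ± 7.35 in FWctl (n = 6), 83.0 ± 16.5 in FWatb (n = 7) and 136 ± 4.80 in ATB (n = 4). It was 2.24-fold lower under FWctl than in PBS (log2 fold change -1.16, SE 0.18, adjusted p = 1.15e-06, edgeR). Under ATB it was 2.40-fold higher than in PBS (1.26, SE 0.16, adjusted p = 5.93e-06). FWatb exceeded FWctl 3.27-fold (1.71, SE 0.16, adjusted p = 7.54e-12), and ATB exceeded FWatb (-0.72 for FWatb vs ATB, adjusted p = 0.000163). The rise in FWatb over PBS was the smallest (0.54, SE 0.15, adjusted p = 0.0151), and the only one of these FOS calls that another fit lost. It did not pass with the library set as a term (0.52, adjusted p = 0.0569), with the replicate number as a block over all groups (0.42, adjusted p = 0.0645), or without PBS replicate 1 (adjusted p = 0.0952) or 3 (adjusted p = 0.0631). Within the libraries with a high ribosomal DNA share it was 0.70 (adjusted p = 0.0479), and the fall under FWctl there was -0.85 (adjusted p = 0.0123).

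FOSB (ENSG00000125740, chr19:45467995-45475179, plus strand), an activating Fos protein, was scarcely detected. In ATB FOSB had 8.37, 17.3, 15.2 and 28.01 normalized counts and in PBS 5.97, 4.99, 5.83 and 15.5. The groups overlapped, and the log2 fold change of 1.01 (SE 0.41) for ATB vs PBS had an adjusted p of 0.434. FOSB was lower under FWatb than under ATB (-1.38, SE 0.39, adjusted p = 0.0114), a call lost without ATB replicate 4 (-0.96, adjusted p = 0.171), with the library set as a term (-0.98, adjusted p = 0.286) and with the replicate block (-1.09, adjusted p = 0.0640). FWctl vs ATB gave -1.97 (adjusted p = 0.0002).

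FOSL1 (ENSG00000175592, chr11:65892049-65900573, minus strand) encodes FRA-1, which is often raised in invasive carcinoma cells. It had 4.01 ± 2.96 normalized counts in PBS and 4.04 ± 1.28 in FWctl. Under FWatb its lowest, median and highest values were 4.03, 9.07 and 16.3, and under ATB the values were 3.49, 11.6, 5.78 and 4.10. Most of the higher values were in FWatb, but the groups overlapped. FWatb vs FWctl gave a log2 fold change of 1.18 (SE 0.42, adjusted p = 0.0181), which with same-numbered libraries as pairs of 1 mouse was 1.03 (adjusted p = 0.0574). FWatb vs PBS gave 1.31 (SE 0.46, adjusted p = 0.0641).

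FOSL2 (ENSG00000075426, chr2:28392448-28417317, plus strand) encodes FRA-2 and was the most abundant of the family per kb. It had 1294, 1479, 1506 and 1279 normalized counts in PBS and 1400, 1445, 1189 and 1386 in ATB. FWctl libraries had a lowest value of 727, a median of 771 and a highest of 839, and FWatb libraries 1134, 1193 and 1366. No FWctl library reached the level of any library of another group. FOSL2 fell 1.80-fold in FWctl against PBS (-0.85, SE 0.07, adjusted p = 6.88e-13) and was 1.61-fold higher in FWatb than in FWctl (0.69, SE 0.07, adjusted p = 7.42e-12, below the fold change threshold). Between PBS, FWatb and ATB its adjusted p stayed at or above 0.155. Its SD was 5.23% to 8.62% of the mean in the 4 groups.

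JUN (ENSG00000177606, chr1:58776845-58784048, minus strand) encodes the prototype Jun protein, the main partner of FOS. Its normalized counts were 58.7, 97.3, 66.3 and 77.9 in PBS and 216, 210.0, 171 and 191 in ATB. In FWctl the lowest, median and highest values were 173, 236 and 360, and in FWatb 56.8, 73.9 and 95.4. All 6 FWctl and all 4 ATB libraries exceeded every PBS and FWatb library.

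JUN was 3.42-fold higher in FWctl than in PBS (log2 fold change 1.77, SE 0.17, adjusted p = 1.49e-11, edgeR) and 2.64-fold higher in ATB than in PBS (1.40, SE 0.18, adjusted p = 9.92e-06). It was 3.46-fold lower in FWatb than in FWctl (-1.79, SE 0.15, adjusted p = 1.67e-13). FWatb and PBS gave a difference of -0.02 (SE 0.19, adjusted p = 0.973). With the library set as a term the rise in FWctl was 1.78, and within the libraries with a high ribosomal DNA share 1.65. FWctl replicate 1 had 55.0 normalized counts of JUN, below all 21 other libraries. With it in the fit, the rise in FWctl was 1.55 (adjusted p = 1.18e-05), but the rise in ATB, still 1.39, had an adjusted p of 0.101. FWctl exceeded ATB by 0.37 on the log2 scale (adjusted p = 0.0402) with overlapping groups. That call passed in 6 of the 21 fits leaving out 1 library and was lost with the library set as a term (0.38, adjusted p = 0.0529). It was also lost in DESeq2 (0.34, adjusted p = 0.0981) and with all 22 samples (0.16, adjusted p = 0.630).

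JUNB (ENSG00000171223, chr19:12791486-12793315, plus strand) encodes a Jun protein that often restrains JUN. It had 154, 155, 143 and 169 normalized counts in PBS and 142, 195, 163 and 149.6 in ATB. The lowest, median and highest values were 76.1, 84.4 and 104 in FWctl and 131, 156 and 189 in FWatb. FWctl again lay below all libraries of the other groups. JUNB was 1.77-fold lower in FWctl than in PBS (-0.82, SE 0.12, adjusted p = 1.41e-07) and higher in FWatb than in FWctl by 0.85 on the log2 scale (SE 0.11, adjusted p = 6.98e-09). FWatb and ATB differed from PBS by 0.03 each (SE 0.11 and 0.12, adjusted p = 0.921 and 0.986). Of the JUNB exonic bases 259 are shared with HOOK2 on the opposite strand (median 227 counts), and the strand setting of the counting was not given in the sources used here, so reads of both genes may be mixed.

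JUND (ENSG00000130522, chr19:18279694-18281622, minus strand) is in many resting cells the constant Jun protein. It had 283 ± 18.9 normalized counts in PBS, 284 ± 42.5 in FWctl, 272 ± 31.5 in FWatb and 279 ± 17.9 in ATB. The groups overlapped in every comparison. Its fitted differences lay between -0.08 in FWatb vs FWctl (SE 0.09, adjusted p = 0.511) and 0.04 in FWctl vs ATB (SE 0.10, adjusted p = 0.788). FWctl replicate 1, with 163, was again below all 21 other libraries.

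Set against each other within a library, JUN and FOS moved apart under FWctl. The ratio of JUN to FOS counts was 1.35 ± 0.247 in PBS (1.12 to 1.70), 9.93 ± 3.23 in FWctl (5.70 to 14.3), 0.925 ± 0.299 in FWatb (0.542 to 1.30) and 1.44 ± 0.135 in ATB (1.31 to 1.61). The ATB ratios lay within the PBS range with both genes at a higher level, and FWctl had more JUN and less FOS. These ratios are a description of both genes' counts and carry no test.

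**Figure D4:**
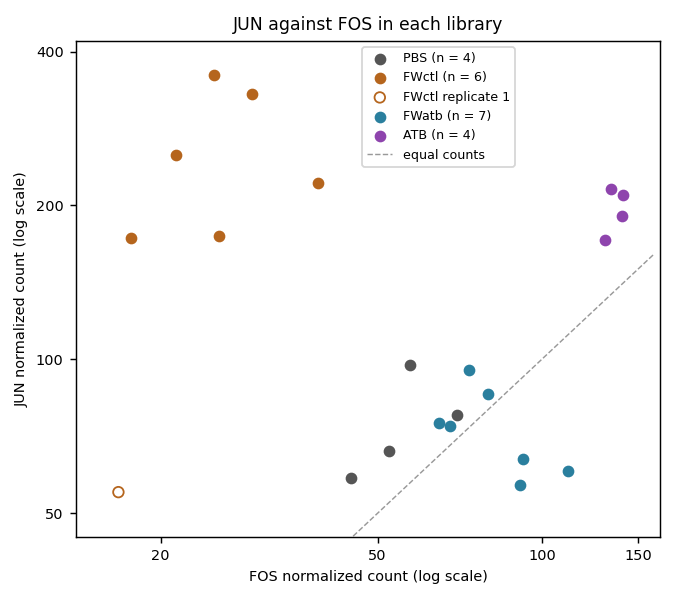
JUN against FOS normalized counts (log scales) in each library, with 1 point per library coloured by group, FWctl replicate 1 open and a dashed line of equal counts. The 6 FWctl libraries lie at the upper left (JUN 173 to 360, FOS 17.7 to 38.9), the 4 ATB libraries at the upper right, and PBS and FWatb together below a JUN count of 97.3.

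EGR1 (ENSG00000120738, chr5:138465479-138469303, plus strand), the zinc finger early gene whose promoter is shown above, had 30.8, 33.7, 25.5 and 21.5 normalized counts in PBS. In ATB it had 174, 156, 181 and 157. In FWctl the lowest, median and highest values were 8.96, 10.0 and 18.5, and in FWatb 21.9, 33.7 and 55.0. The 4 ATB libraries stood far above all others, FWctl lay below PBS without overlap, and FWatb overlapped PBS.

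EGR1 was 6.16-fold higher in ATB than in PBS (log2 fold change 2.62, SE 0.18, adjusted p = 2.52e-13, edgeR), the most marked change of the 10 genes against PBS. It was 4.68-fold higher in ATB than in FWatb (-2.23 for FWatb vs ATB, adjusted p = 1.59e-13) and 14.7-fold higher than in FWctl (-3.88 for FWctl vs ATB, adjusted p = 1.58e-20). It was 2.39-fold lower in FWctl than in PBS (-1.26, SE 0.24, adjusted p = 3.21e-05) and 3.15-fold higher in FWatb than in FWctl (1.65, SE 0.21, adjusted p = 1.73e-08). FWatb vs PBS gave 0.40 (SE 0.19, adjusted p = 0.213). The rise in ATB was 2.66 with the library set as a term and 2.61 with FWctl replicate 1 in the fit, and it passed in all 21 fits that left out 1 library. DESeq2 gave it no adjusted p. The level of EGR1 was 0.517 times that of FOS in PBS counts, 0.471 in FWctl, 0.438 in FWatb and 1.23 in ATB, so that only in ATB did EGR1 counts exceed FOS counts on average.

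IER2 and IER3 moved less. IER2 (ENSG00000160888, chr19:13150411-13154911, plus strand) had 64.6, 66.1, 73.6 and 76.6 normalized counts in PBS and 94.9, 92.5, 73.7 and 77.9 in ATB, with 60.6, 75.4 and 122 as lowest, median and highest in FWctl and 49.3, 59.2 and 78.8 in FWatb. All groups overlapped. FWatb was below FWctl by 0.42 on the log2 scale (-0.42, SE 0.15, adjusted p = 0.0151), which did not pass with FWctl replicate 1 in the fit (-0.28, adjusted p = 0.185), with all 7 pairs (-0.24, adjusted p = 0.313), within the libraries with a high ribosomal DNA share (-0.40, adjusted p = 0.0521), with library size alone (-0.32, adjusted p = 0.0728), or without FWctl replicate 3 (adjusted p = 0.0996), FWctl replicate 8 (adjusted p = 0.135) or FWatb replicate 6 (adjusted p = 0.0519). No comparison with PBS passed (adjusted p from 0.205 to 0.797).

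IER3 (ENSG00000137331, chr6:30743199-30744548, minus strand) had 35.8, 57.4, 43.0 and 45.7 normalized counts in PBS and 41.2, 34.7, 46.2 and 49.9 in ATB, with 21.996, 35.5 and 44.4 as lowest, median and highest in FWctl and 38.5, 56.5 and 70.2 in FWatb. The lower values were mostly in FWctl and the higher ones in FWatb, with overlap. IER3 was higher in FWatb than in FWctl by 0.67 on the log2 scale (SE 0.16, adjusted p = 0.000693). FWctl vs PBS gave -0.35 (adjusted p = 0.124), which became -0.48 with FWctl replicate 1 in the fit (adjusted p = 0.0434). IER2 and IER3 share exonic bases with antisense long noncoding RNAs whose median counts were 0 or 1. With the conditions ordered by their means, no pair of neighbours passed the test for FOSB, FOSL1, JUND, IER2 or IER3 (adjusted p from 0.169 to 0.991).

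Same-numbered FWctl and FWatb libraries were taken as faecal water of 1 mouse before and under antibiotics, which left 6 pairs. FOS, FOSL2, JUNB, EGR1 and IER3 were higher under FWatb in 6 of 6 pairs, and JUN was lower in 6 of 6. For FOS, FOSL2, JUNB, EGR1 and JUN the FWctl and FWatb libraries did not overlap, so any matching would give 6 of 6. Of these genes, only for IER3 could another matching have changed the count. The log2 ratio of FWatb to FWctl ran from 1.21 to 2.13 for FOS, from 0.94 to 2.04 for EGR1 and from 0.34 to 1.18 for JUNB. For FOSL2 it ran from 0.51 to 0.81, for IER3 from 0.49 to 0.84, and for JUN from -2.16 to -1.20. IER2 and JUND were lower in 5 of 6 pairs and higher in 1, and FOSB and FOSL1 were higher in 4 of 6. The narrow ranges of FOSL2 and IER3 contrast with FOSL1, whose ratio ran from -0.25 to 2.51 on few counts.

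FWctl replicate 1 was below all 21 other libraries for FOS (16.7), JUN (55.0), JUND (163), IER2 (42.2) and IER3 (21.5). Its JUNB (80.5) and EGR1 (14.3) lay within the range of the other FWctl libraries. Its FOSL2 (912) lay between FWctl and the other groups. It therefore had the low FOS, JUNB and EGR1 of FWctl without the high JUN.

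Around these genes, 5 lists were followed. Their counts are to be read against the shares of all genes that passed. These were 46.4% in FWctl vs PBS (24.3% higher, 22.1% lower), 9.99% in FWatb vs PBS and 0.285% in ATB vs PBS. In FWatb vs FWctl the share was 12.7% with the fold change threshold. Of the AP-1 dimer partners 15 of 18 listed were tested, and against PBS 7 rose and 4 fell under FWctl (median log2 fold change 0.21, over all genes 0.02). JDP2, a repressor that pairs with Jun proteins, rose by 1.54 (adjusted p = 4.10e-14) and NFE2L1, a proteasome gene regulator, by 0.99, while MAFG, a small Maf partner, rose by 0.74. MAF, a large Maf protein, fell from 273 to 137 normalized counts, and MAFF (-0.55), MAFK (-0.42) and CREB1 (-0.30) fell as well. ATF3, a stress-induced Jun partner named after its values were seen, rose by 1.79 (adjusted p = 1.59e-13), from 50.3 ± 3.84 normalized counts in PBS to 174 ± 33.6 in FWctl, with 46.8 ± 8.33 in FWatb and 75.5 ± 11.3 in ATB. FWatb vs FWctl took ATF3 (-1.90), JDP2 (-1.60) and NRL (-1.41) down past the fold change threshold. Against PBS, MAF alone fell under FWatb (-0.55), and under ATB 0 passed in edgeR (4 at an unadjusted p below 0.05) and 0 in DESeq2.

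Of the other immediate early genes 21 of 26 were tested, and 7 rose and 3 fell under FWctl against PBS (median 0.34). KLF10, an early TGF-beta response gene, rose by 2.40 (adjusted p = 5.67e-21), PPP1R15A, which reverses the stress-induced block of translation, by 1.23, MYC by 0.57 and RHOB by 0.41. NR4A1 (-1.01), BTG2 (-0.35) and SGK1 (-0.22) fell. Under FWatb 3 rose (MYC 0.96, KLF10 0.65, SGK1 0.33) and ZFP36L1 fell (-0.31). Under ATB 2 rose. NR4A3, an early nuclear receptor, rose from 2.21 ± 1.66 to 12.5 ± 2.01 normalized counts (2.38, SE 0.51, adjusted p = 0.0219), and KLF6 rose from 203 ± 34.1 to 300.3 ± 29.6 (0.57, adjusted p = 0.0489). In DESeq2 KLF6 passed and NR4A3 did not. FWatb vs FWctl took KLF10 (-1.75), CCN1 (-1.61), PPP1R15A (-1.16) and GADD45B (-1.07) down and NR4A1 (1.21) up past the threshold.

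Of the listed kinases and serum response factors 21 of 22 were tested, with 5 higher and 6 lower under FWctl (median 0.06). RPS6KA1 (-1.19), MAPK3, which encodes ERK1 (-0.88), RPS6KA3 (-0.52) and RPS6KA5 (-0.43) were among those that fell. MAPK11 (1.43), MAPK8 (0.35), MAP2K7 (0.35), ELK4 (0.25) and MAP3K1 (0.24) rose. MAPK3 also fell under FWatb (-0.35), and under ATB 0 passed in edgeR (1 at an unadjusted p below 0.05) and 0 in DESeq2. Past the threshold in FWatb vs FWctl, RPS6KA1 was higher (1.38) and MAPK11 lower (-1.32). These are mRNA levels and say nothing of kinase activity.

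Of 24 known AP-1 target genes 20 were tested, and 6 rose and 5 fell under FWctl (median 0.03), so the list went in both directions. MMP1, an interstitial collagenase with AP-1 sites, fell from 2055 ± 158 normalized counts in PBS to 611 ± 93.3 in FWctl (-1.75, adjusted p = 7.78e-20), and was 1513 ± 161 in ATB (-0.44, adjusted p = 0.0292). CD44 rose by 0.60, and PLAU (-2.297), TGFB1 (-1.26), CCND1 (-0.60) and HMGA1 (-0.34) fell. CXCL8, the neutrophil chemokine driven by NF-kB and AP-1 and named after its values were seen, was 1.86 ± 2.23 in PBS, 219 ± 51.9 in FWctl, 4.41 ± 1.49 in FWatb and 7.69 ± 4.28 in ATB. Under FWatb ITGA2 (0.59), CD44 (0.57) and FLNA (0.45) rose against PBS. Past the threshold FWatb exceeded FWctl for PLAU (2.34), MMP1 (1.79) and TGFB1 (1.73), and was lower for CXCL8 (-5.58), MMP7 (-3.20) and MMP3 (-1.03).

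Of 8 heat shock and handling genes, 3 rose and 2 fell under FWctl, with HSPH1 at 0.78, HSP90AA1 at 0.67, DNAJB1 at 0.24, HSPE1 at -0.51 and HSPB1 at -1.14. HSP90AA1 also rose under FWatb (0.52). Under ATB 0 passed in edgeR (0 at an unadjusted p below 0.05) and 0 in DESeq2.

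By Spearman's rho over the 21 libraries, among genes with a mean of at least 100 normalized counts, those most like FOS were CPS1 (0.93), HS2ST1 (0.93) and LPCAT2 (0.93). Those most like JUN were WASHC2A (0.90), BMF (0.88) and PPP1R15B (0.88), and those most like EGR1 were SLC4A8 (0.88), SELENBP1 (0.87) and CPS1 (0.87). These values describe 21 libraries in 4 groups that share their treatment, and CPS1, an enzyme of ammonia disposal, followed FOS with 1945 in PBS, 813 in FWctl, 2098 in FWatb and 2565 in ATB.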

How the data were processed

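Total RNA of Caco-2 cells, depleted of ribosomal RNA, was sequenced from stranded libraries. The authors trimmed reads with Trimmomatic 0.38, aligned them to GRCh38 with HISAT2 2.1.0 and used featureCounts (Subread 2.0.0) to count reads over genes of Ensembl 105, and the deposited values are raw counts of 61487 genes in 22 samples. The strand setting was not given in the sources used here. Symbols, coordinates and exonic lengths were taken from GENCODE 44 (61369 identifiers found).

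Groups and replicate numbers came from the labels. The study left out 1 FWctl sample, which was taken to be replicate 1 from the principal components. A gene was tested if 3 or more samples had counts over 5. The quasi-likelihood test of edgeR 4.0.16 (R 4.3.3) was run in 1 model of 21 samples after TMM scaling, with p adjusted by Benjamini-Hochberg over all genes. Normalized counts are counts scaled to the mean TMM library size. An adjusted p below 0.05 was required, and for FWatb against FWctl also an absolute log2 fold change above 1. The fit was tested on simulated data. The members and gene lists were chosen with earlier results of these data known. Of each list at most 4 genes were named, those with the largest change in FWctl against PBS among genes called there with a mean of at least 100, plus genes needed to state small counts. Some genes of these lists are counted but not reported here by name.

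By the study's methods FWctl and FWatb came from the same mice, and equal replicate numbers were taken as 1 mouse, an inference. Deviations of the 6 same-numbered pairs from their group means correlated at -0.0018 to 0.123 (mean 0.046, other numbers -0.0095). No 2 libraries of a group agreed within sampling noise (54 pairs, chi-square of 3.58 or more per degree of freedom). Alternatives were all 22 samples, only the groups compared, DESeq2 1.42.0, other size factors and filters, a replicate block, the library set by ribosomal DNA share divided at 0.5%, each library left out and another fold change threshold. The replicate block over all 7 pairs and the library set over all 22 samples were added after seeing the data. Figures were drawn with matplotlib 3.10.9 and tables made with pandas 2.3.3.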

Additional observations from a re-analysis of the deposited data

Results flagged for a closer look

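In 3 of 40 groups of member values 1 library stood apart from the rest by Dixon's test at the 95% level, where chance alone gives about 2 of 40. FOSB in PBS replicate 4 had 15.5 normalized counts, a raw count of 23, against 4.99 to 5.97 in the other PBS libraries. JUND in ATB replicate 3 had 252 normalized counts against 286 to 289 in the others. EGR1 in FWctl replicate 4 had 18.5 normalized counts, a raw count of 13, against 8.96 to 11.5 in the others.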

How the results depend on the processing

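No member changed direction after passing the test: of 1956 member values under the alternatives, 1899 kept their side of the threshold (among them 95 that passed neither before nor after and turned sign, so their direction is not settled), 40 no longer passed and 17 newly passed. With an absolute log2 fold change above 1 required, members passing went from 5 to 3 in FWctl vs PBS (FOSL2 and JUNB lost), from 1 to 0 in FWatb vs PBS, from 4 to 3 in FWatb vs ATB (FOS lost) and from 6 to 3 in FWctl vs ATB, and without that threshold from 4 to 8 in FWatb vs FWctl. In FWatb vs PBS the count was 0 with the library set as a term, with 21 or all 22 samples, and 2 with library size alone (FOS and FOSL1). Leaving out 1 library gave 5 to 6 members in FWctl vs PBS, 0 to 2 in FWatb vs PBS, 3 to 3 in ATB vs PBS, 4 to 4 in FWatb vs FWctl, 3 to 5 in FWatb vs ATB and 5 to 6 in FWctl vs ATB. The 0 arose without PBS replicate 1 or 3 and the 2 without PBS replicate 2 or FWatb replicate 3, 6 or 7. The replicate block changed, beside the FOSL1, FOS and FOSB calls given above, FOSL1 in FWatb vs PBS (passing, adjusted p = 0.0407) and IER3 in FWatb vs ATB (0.48, adjusted p = 0.0461), and no other member's call. With all 7 pairs FOSL1 in FWatb vs FWctl gave 1.29 (adjusted p = 0.0166), and under edgeR's own filter on low counts it was not tested. Of the same-numbered FWctl and FWatb libraries 3 of 6 correlated best with their own number. Over all genes, ATB vs PBS passed 58 genes in the reported fit, 208 in DESeq2, 203 with the replicate block, 111 without a filter, 14 with library size alone, 5 with all 22 samples, 9 with the library set over all 22 samples, and between 7 (without PBS replicate 2 or ATB replicate 3) and 93 (without ATB replicate 2) leaving out 1 library. FWatb vs PBS passed 2035, but 1227 with all 22 samples, 1082 with the library set over all 22 samples, 1127 within libraries with a high ribosomal DNA share and 1334 without PBS replicate 2, and FWatb vs ATB passed 2958 against 1589 with the library set over all 22 samples. With the fold change threshold the counts were 2681, 115, 7, 216 and 2526 in FWctl vs PBS, FWatb vs PBS, ATB vs PBS, FWatb vs ATB and FWctl vs ATB, and without it 9942 in FWatb vs FWctl. The cause of the changes was not tested. Ribosomal DNA share is high in all FWatb libraries, so within the low set FWatb gives no value, and ATB has 1 library in the high set. FOSB and FOSL1 rest on few counts, which limits what could be detected for them.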
